A study of Mus musculus with 18 samples.

Results

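A set of 9 tight junction genes was followed across mouse ovaries with and without the lipid kinase subunit Pik3cd, before and after 2 hormone treatments. They are the claudins Cldn1, Cldn3, Cldn5, Cldn11 and Cldn12, occludin (Ocln), junctional adhesion molecule A (F11r), the scaffold zonula occludens 1 (Tjp1) and the polarity protein Crb3. Each gene was read from the probe set annotated to its symbol alone that had the highest mean signal over all 18 arrays, and any further probe sets served as a check. The genes themselves were selected on earlier results of the same arrays, so their differences below are a description of chosen genes. All 9 genes were found, of 18193 genes with such a probe set, and all 9 passed the filter on dim signals. Ocln passed it through its 3 Pik3cd-/- groups only, and Cldn11 through both PMSG groups and untreated Pik3cd-/- ovaries only.

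Tight junctions seal the space between neighbouring cells near their apical edge and set which ions and solutes pass between them. Claudins form the sealing strands, occludin and junctional adhesion molecules lie beside them in the membrane, zonula occludens proteins tie the strands to actin, and the Crumbs complex with Crb3 helps to place the junction at the apical border. In the ovary, such junctions are known from the surface epithelium and from blood vessels, and claudins have been described in the follicle wall.

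The RNA came from whole ovaries of mice of the strain background C57B6J/S129, hybridised to 1-colour Affymetrix Mouse Genome 430 2.0 arrays. The 6 groups had 3 arrays each, labelled as biological replicates: Pik3cd-/- and Pik3cd+/- mice 44 hours after PMSG (pregnant mare serum gonadotropin, which acts like follicle-stimulating hormone) at 10 IU, Pik3cd-/- and Pik3cd+/- mice 72 hours after the first of 3 daily oestradiol (E2) injections of 0.03 ml each, and untreated Pik3cd-/- and Pik3cd+/- mice. Untreated mice were 21 days old, and injected mice were older by the hours since the first injection. The heterozygote was the only control genotype, no vehicle-injected group was among the arrays, and the E2 dose is labelled as a volume only. The labels do not say how many animals an array holds, so p-values measure the spread between these arrays. Signal is given in the deposited intensity units and compared between groups within a probe set, never between probe sets. In whole ovaries, fewer cells of a type and less RNA per cell cannot be told apart.

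The genotype was visible on the Pik3cd probe set 1453281_at, which read 23.5 ± 3.02 in Pik3cd-/- and 69.7 ± 2.08 in Pik3cd+/- ovaries after PMSG (SD, n = 3 each), with the same separation in the other 2 states. Of the 6 Pik3cd probe sets, only 1422992_s_at also separated the genotypes in every state. The brightest, 1443798_at, averaged 3130 in Pik3cd-/- and 3970 in Pik3cd+/- ovaries after PMSG. It was higher in Pik3cd-/- ovaries after E2 (3380 against 2740) and untreated (3610 against 3110). Array medians lay between 48.4 and 50.9 units. The granulosa marker Inha and the oocyte marker Zp3 were bright on every array, at 7930 units or more for Inha and 1480 units or more for Zp3. The Pik3cd-/- E2 group was the least uniform: its replicate 3 had a mean log2 level of 9.93 over 12 oocyte markers against 10.71 and 10.77 in the other 2, and its replicate 2 read 7.20 over 12 endothelial markers against 7.94 and 8.06. Values that rest on these arrays are given with and without them where the call changes.

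The promoters of the 3 genes that carry most of the results below are shown from RefSeq (GRCm38.p6), each from 250 bases before to 50 bases after the annotated start, on the gene's strand. All 9 genes had an entry in that table. Cldn1 lies at chr16:26371790-26372089 on the minus strand, Cldn11 at chr3:31149670-31149969 on the plus strand, and the first of 2 Crb3 windows at chr17:57061951-57062250 on the plus strand. Capitals mark matches on either strand to any of 9 motifs. They include the GC box GGGCGG, the TATA box TATAAA, a FOXO site GTAAACA, and GGTCA, which is only a part of an oestrogen receptor site. The others are an NR5A site AAGGTCA (which contains GGTCA), a SNAIL E-box CAGGTG, the CRE TGACGTCA, a grainyhead site AACCGGTT and the CCAAT box CCAAT.
Cldn1: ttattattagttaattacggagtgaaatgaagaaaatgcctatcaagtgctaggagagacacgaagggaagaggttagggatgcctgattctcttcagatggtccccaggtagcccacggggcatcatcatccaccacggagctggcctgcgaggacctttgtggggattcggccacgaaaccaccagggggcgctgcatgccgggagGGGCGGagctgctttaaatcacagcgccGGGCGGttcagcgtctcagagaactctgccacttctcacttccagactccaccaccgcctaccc
Cldn11: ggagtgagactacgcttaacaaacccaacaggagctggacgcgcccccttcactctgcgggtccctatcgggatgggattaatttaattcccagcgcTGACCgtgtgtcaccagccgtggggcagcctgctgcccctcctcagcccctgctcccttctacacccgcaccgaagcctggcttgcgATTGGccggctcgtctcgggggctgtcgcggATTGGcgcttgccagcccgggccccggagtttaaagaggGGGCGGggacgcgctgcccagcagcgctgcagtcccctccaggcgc
Crb3: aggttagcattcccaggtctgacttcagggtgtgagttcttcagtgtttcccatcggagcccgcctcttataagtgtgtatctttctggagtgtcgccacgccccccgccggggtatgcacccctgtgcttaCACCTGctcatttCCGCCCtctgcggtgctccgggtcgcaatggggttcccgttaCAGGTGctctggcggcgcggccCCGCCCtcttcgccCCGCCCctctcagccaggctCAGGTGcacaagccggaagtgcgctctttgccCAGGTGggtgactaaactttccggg
The Cldn1 window held 2 GC boxes, a motif found in 35.7% of all 32851 promoter windows, and no other motif of the list. The Cldn11 window held 1 GC box, 2 CCAAT boxes (37.4% of windows) and 1 GGTCA (40.5%). The Crb3 window held 3 GC boxes and 4 SNAIL E-boxes, and the other Crb3 window overlaps it. At least 1 such E-box occurs in 20.2% of windows and 4 or more in 0.0548%, or 18 windows. The cut of 4 is the Crb3 count itself, and both overlapping Crb3 windows are among the 18. None of the 9 genes had a TATA box, FOXO site, NR5A site, CRE or grainyhead site of exactly these letters in its windows. These matches describe letters, not binding.

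Differences below are on the scale log2(signal + 8.58), and a call is an adjusted p under 0.05 from limma's moderated test with Benjamini-Hochberg adjustment over 12713 genes. The PMSG and E2 comparisons of a genotype share its untreated arrays. After PMSG, 2 of the 9 genes were called in Pik3cd-/- ovaries, where 2.39% of all genes tested were called: 1 was higher (background 1.71%) and 1 lower (0.684%). In Pik3cd+/- ovaries 3 were called against a background of 17.7%, 2 of them higher (5.81%) and 1 lower (11.9%). After E2, 0 of 9 were called in Pik3cd-/- ovaries (background 0.0551%, with 1862 genes of all at an unadjusted p under 0.05) and 1 of 9 in Pik3cd+/- ovaries, which was lower (1.62% in either direction, 0.44% lower). Between genotypes, 1 gene was higher in Pik3cd-/- ovaries after PMSG (4.13% in either direction, 3.08% higher), 4 were higher after E2 (16.8% and 4.85%), and 1 was higher in untreated ovaries (2.17% and 0.834%). The median difference of the 9 genes between genotypes was 0.23 after PMSG, 0.37 after E2 and 0.13 untreated. For all genes tested it was 0.01, -0.07 and -0.01. The 9 were chosen on earlier results of these arrays, so their medians only describe the chosen genes. Between genotypes after E2, 0 of the 9 were called without Pik3cd-/- E2 replicate 1 or Pik3cd+/- E2 replicate 2. Without Pik3cd+/- E2 replicate 1 there was 1, and without Pik3cd-/- E2 replicate 2 there were 2. PMSG against E2 gave 1 called gene in each genotype, higher after PMSG, with backgrounds of 4.11% (3.33% higher) in Pik3cd-/- and 11.2% (3.54% higher) in Pik3cd+/- ovaries. No gene of the whole table was called for a difference in response between genotypes (background 0% for PMSG and for E2), while 1194 and 924 genes had an unadjusted p under 0.05.

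**Figure D1:**
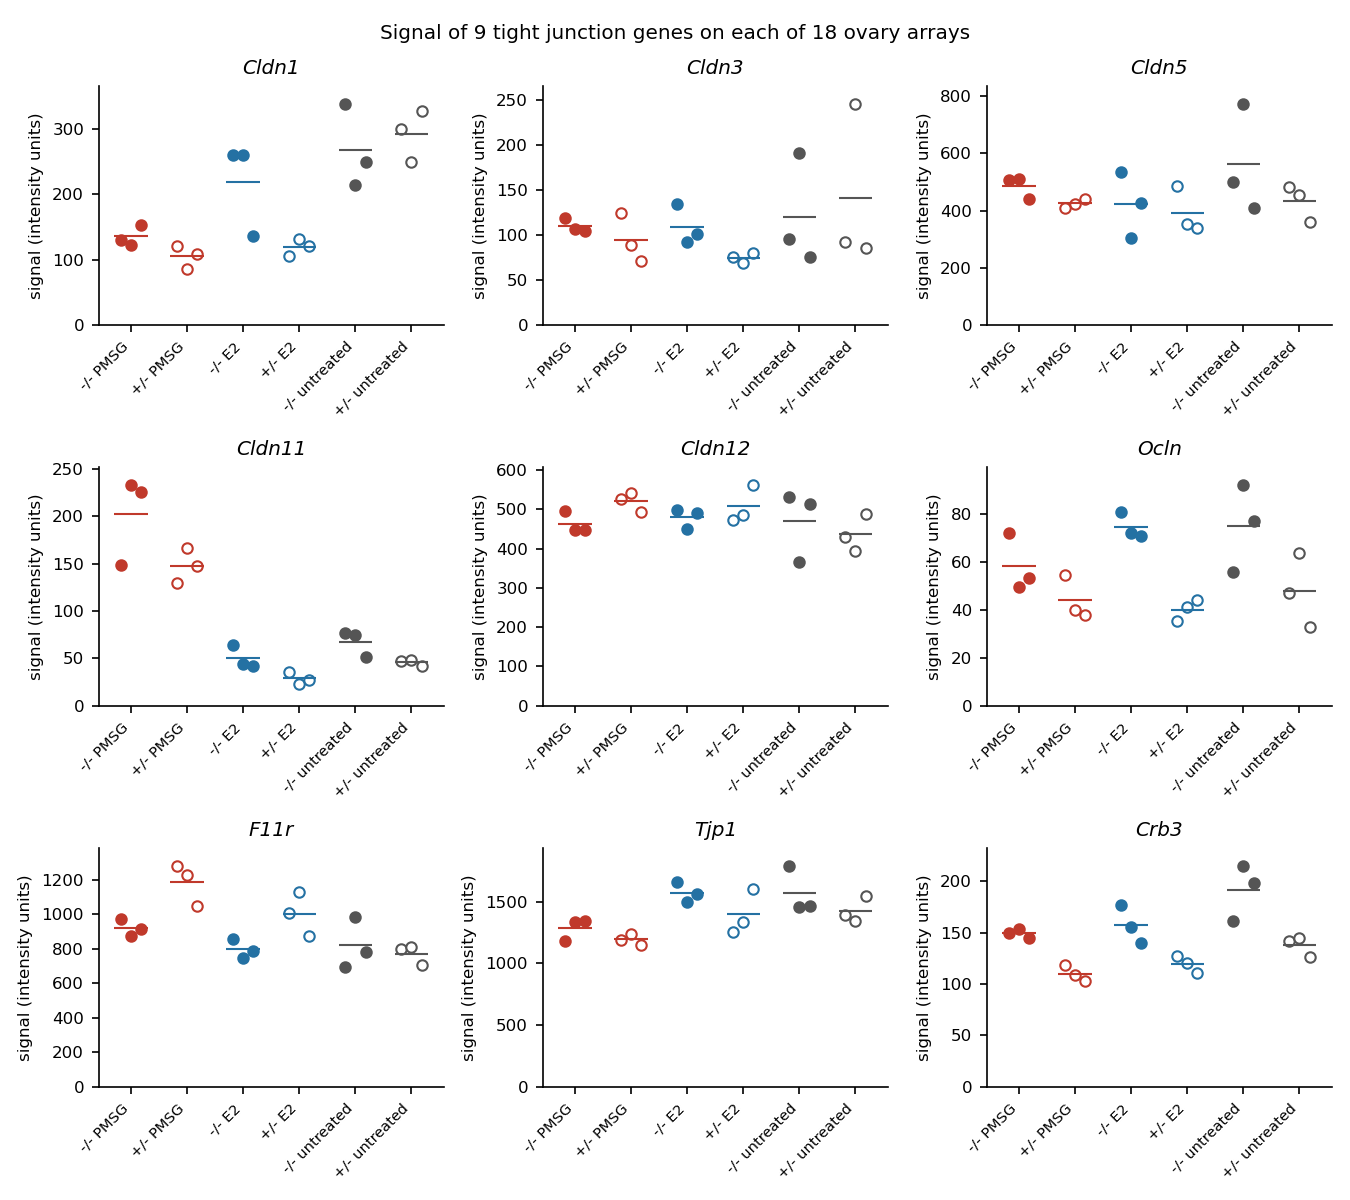
Signal in intensity units (y axis, from 0) of each of the 9 genes on every array, by group (x axis); filled points are Pik3cd-/- and open points Pik3cd+/-, and the line is the group mean of 3 arrays. Cldn11 lies at 130 units or more on all 6 PMSG arrays and at 76.7 units or less on the other arrays, and Cldn1 shows 2 high arrays and 1 low array in the Pik3cd-/- E2 group.

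Cldn1, a strand-forming claudin best known for the skin and liver barriers, was lower after PMSG in both genotypes and lower after E2 in Pik3cd+/- ovaries. Its signal after PMSG was 131, 123 and 153 in Pik3cd-/- ovaries and 120, 85.7 and 108 in Pik3cd+/- ovaries. After E2 it was 261, 260 and 137 in Pik3cd-/- ovaries and 105, 131 and 120 in Pik3cd+/- ovaries. Untreated ovaries read 339, 215 and 250 in Pik3cd-/- and 300, 250 and 328 in Pik3cd+/- mice. All PMSG arrays therefore lay below all untreated arrays of their genotype, and so did the Pik3cd+/- E2 arrays, whereas the Pik3cd-/- E2 arrays overlapped the untreated ones. In Pik3cd+/- ovaries the log2 difference was -1.41 ± 0.21 after PMSG (SE, limma adjusted p = 0.001, 2.66-fold lower) and -1.24 ± 0.21 after E2 (adjusted p = 0.0113, 2.36-fold lower). In Pik3cd-/- ovaries it was -0.92 ± 0.21 after PMSG (adjusted p = 0.0327), and -0.31 after E2 with a 95% interval of -0.77 to 0.14 (adjusted p = 0.49). Oocyte markers were also lower after PMSG in Pik3cd+/- ovaries, 9 of 12 by the test with a list median of -0.87. That is 75% of the list, beside 11.9% of all genes tested that were called lower. In Pik3cd-/- ovaries 0 of 12 were called, beside 2.39% of all genes tested, and the list median was -0.38. Cldn1 correlated with that list at 0.68 over 18 arrays, and the list's part was not tested.

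Between genotypes Cldn1 was 1.72-fold higher in Pik3cd-/- ovaries after E2, at 219 ± 71.4 against 119 ± 13.1 units in Pik3cd+/- ovaries (SD, n = 3 each; limma adjusted p = 0.0237). The E2 responses of the genotypes differed by 0.93 ± 0.30, which did not pass the test (adjusted p = 0.595). Both this value and PMSG minus E2 in Pik3cd-/- ovaries depend on Pik3cd-/- E2 replicate 3, the low array at 137 units. Leaving that array out can only widen them. Without it the difference in response was 1.22 with an adjusted p of 0.0378. In that fit 71 genes of all were called for a difference in E2 response, against 0 with all arrays. PMSG minus E2 in Pik3cd-/- ovaries was -0.91 (adjusted p = 0.00568) without the array and -0.61 (adjusted p = 0.129) with it. Group means ran from 105 units in Pik3cd+/- ovaries after PMSG through 119, 135, 219 and 268 to 292 units in untreated Pik3cd+/- ovaries, and every pair of neighbours in this order overlapped. The call after PMSG in Pik3cd-/- ovaries was lost without any 1 of 5 of its 6 arrays, all but untreated replicate 2, with adjusted p up to 0.131. The call after E2 in Pik3cd+/- ovaries was lost without untreated replicate 3 (adjusted p = 0.0707), and the genotype call after E2 without Pik3cd-/- E2 replicate 1 or 2 or Pik3cd+/- E2 replicate 1 or 2 (adjusted p up to 0.103). The other 3 Cldn1 probe sets were dim in every group and correlated with the first at 0.35 to 0.76 over 18 arrays. Rap2b (r = 0.915), Nell1 (r = 0.898) and Zfr (r = 0.892) had the patterns most like that of Cldn1.

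Cldn11, the claudin of myelin and of the Sertoli cell barrier in the testis, was the member with the widest range between groups and rose after PMSG in both genotypes. After PMSG it read 148, 233 and 225 units in Pik3cd-/- ovaries and 130, 166 and 147 in Pik3cd+/- ovaries. After E2 it read 63.9, 44 and 42 in Pik3cd-/- ovaries and 35.9, 23.2 and 27.4 in Pik3cd+/- ovaries. Untreated ovaries had 76.7, 74.6 and 51.8 units in Pik3cd-/- and 46.7, 48.7 and 42 in Pik3cd+/- mice. No PMSG array overlapped any array of another treatment. The log2 rise over untreated ovaries was 1.46 ± 0.19 in Pik3cd-/- ovaries (SE, limma adjusted p = 0.000773, 2.74-fold) and 1.52 ± 0.19 in Pik3cd+/- ovaries (adjusted p = 0.000298, 2.86-fold). The 2 responses differed by -0.06 with a 95% interval of -0.63 to 0.51 (adjusted p = 0.965). Among the Pik3cd+/- groups, Cldn11 passed the filter on dim signals after PMSG only, where it read higher. Both PMSG calls were kept without the filter.

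Set against E2 directly, Cldn11 after PMSG was 3.58-fold higher in Pik3cd-/- ovaries (limma adjusted p = 5.02e-05) and 4.20-fold higher in Pik3cd+/- ovaries (adjusted p = 3.51e-05). The hours since the first injection differ between those treatments. E2 minus untreated was -0.38 in Pik3cd-/- ovaries (adjusted p = 0.357) and -0.55 in Pik3cd+/- ovaries (adjusted p = 0.147). After E2 the signal was 1.56-fold higher in Pik3cd-/- ovaries, at 49.97 ± 12.1 against 28.8 ± 6.48 units in Pik3cd+/- ovaries (SD, n = 3 each; adjusted p = 0.0319), with no overlap of arrays. Both of these groups lie below the filter level (a mean log2 value of 5.87), and the call was lost without Pik3cd-/- E2 replicate 1 or Pik3cd+/- E2 replicate 2 or 3 (adjusted p up to 0.135). It was also lost with a pseudocount of 64 (0.29, adjusted p = 0.0938) and after quantile normalization (0.61, adjusted p = 0.0521). In untreated ovaries the difference was 0.47 (adjusted p = 0.174), also without overlap, and after PMSG 0.41 (adjusted p = 0.269).

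Most theca and steroid synthesis markers called after PMSG rose, as Cldn11 did, but not all. Of 7 such genes tested, 3 rose and 0 fell in Pik3cd-/- ovaries, and 4 rose and 2 fell in Pik3cd+/- ovaries. These are 42.9% and 85.7% of the list, beside 2.39% and 17.7% of all genes tested. Gli1 was among those that fell (-0.58, limma adjusted p = 0.000831). The list's mean log2 level was 10.92 to 11.31 on Pik3cd-/- PMSG arrays and 10.79 to 11.39 on Pik3cd+/- PMSG arrays, against 9.39 to 10.11 and 9.80 to 9.99 on the untreated arrays of those genotypes. Cyp17a1, the androgen-producing enzyme of theca cells, read 3000 to 6060 units in Pik3cd-/- and 3260 to 5810 units in Pik3cd+/- ovaries after PMSG. The arrays fall into PMSG and other arrays on both measures, and within them the correlation of Cldn11 with the list was 0.60 over 6 PMSG arrays and 0.25 over the 12 E2 and untreated arrays. The list's part in the PMSG result was not tested. After E2 the list's level was 8.98 to 9.19 in Pik3cd-/- and 9.10 to 9.92 in Pik3cd+/- ovaries, which overlap. The list's median difference between genotypes after E2 was -0.22, opposite in direction to that of Cldn11. Its 1 called gene in that comparison, the steroid enzyme Hsd3b1, was higher in Pik3cd-/- ovaries (0.42, limma adjusted p = 0.0417). That is 14.3% of the list, beside 16.8% of all genes tested, and the list's part was not tested. Of 2 nerve and myelin genes tested, none was called in any comparison, where 0% to 17.7% of all genes tested were called. The genes whose log2 pattern was most like that of Cldn11 over the 18 arrays were Smarca1 (r = 0.970), Mme (r = 0.949) and Fads2 (r = 0.947).

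**Figure D2:**
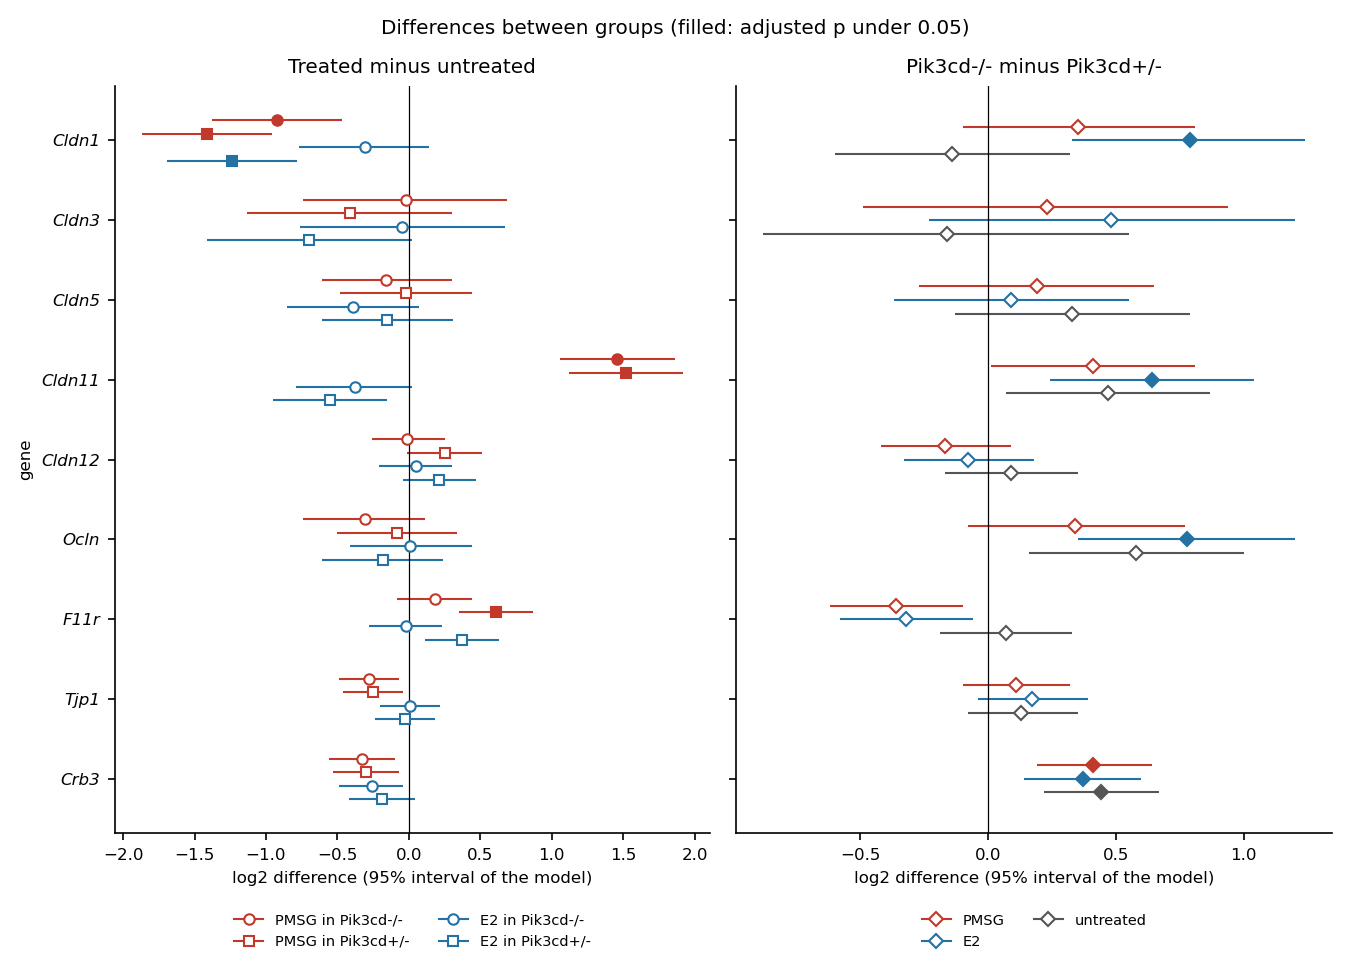
Log2 differences (x axis) with 95% intervals for the 9 genes (y axis), treated minus untreated at left and Pik3cd-/- minus Pik3cd+/- at right; filled symbols have a limma adjusted p under 0.05. Cldn11 after PMSG in both genotypes, and Cldn1 after PMSG in both and after E2 in Pik3cd+/- ovaries, stand farthest from 0 at left, and Crb3 is the gene called in all 3 states at right.

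Cldn3, an epithelial claudin that is a common marker of ductal and glandular epithelia, was called in no comparison. It read 119, 107 and 105 units in Pik3cd-/- and 124, 88.8 and 71.3 units in Pik3cd+/- ovaries after PMSG, and 134, 91.7 and 101 against 75, 69 and 79.6 units after E2. Untreated ovaries had 95.1, 191 and 75.2 units in Pik3cd-/- and 92.7, 246 and 85.9 units in Pik3cd+/- mice. Replicate 2 of each untreated group stood above all other arrays, on each of the 4 Cldn3 probe sets. The same 2 arrays had the highest and the third highest levels of the oviduct epithelium list, at 7.63 for Pik3cd-/- and 8.29 for Pik3cd+/-. Ovgp1, the oviduct-specific glycoprotein, read 341 units on the Pik3cd-/- and 1170 units on the Pik3cd+/- one. Pik3cd+/- PMSG replicate 1 had 3990 units of Ovgp1, a list level of 8.21 and 124 units of Cldn3. Over 18 arrays the correlation of Cldn3 with that list was 0.77, or 0.68 without the 2 arrays farthest from the list's median, and the list's part in its spread was not tested. Without untreated Pik3cd+/- replicate 2, E2 minus untreated in Pik3cd+/- ovaries was -0.24 against -0.70 with it, and neither value passed the test (adjusted p = 0.786 and 0.307). Grhl2 (r = 0.882) had the pattern most like that of Cldn3, before 1700088E04Rik (r = 0.864) and Tspan1 (r = 0.863).

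Cldn5, the claudin of endothelial barriers, was also called in no comparison. Its signal was 508, 512 and 441 units in Pik3cd-/- and 410, 424 and 441 in Pik3cd+/- ovaries after PMSG, and 534, 304 and 427 against 485, 352 and 338 units after E2. Untreated Pik3cd-/- ovaries had 501, 774 and 410 units and untreated Pik3cd+/- ovaries 483, 456 and 361. The lowest array, Pik3cd-/- E2 replicate 2, and the highest, Pik3cd-/- untreated replicate 2, were also the lowest and the highest in the mean level of 12 endothelial markers (7.20 and 8.14). Over 18 arrays Cldn5 correlated with the endothelial list at 0.77, or 0.60 without those 2. Within the 9 arrays of a genotype the correlation was 0.82 in Pik3cd-/- and 0.48 in Pik3cd+/- ovaries. The same 2 arrays were the lowest and highest for the surface epithelium list (7.29 and 8.54) and the stromal fibroblast list (11.06 and 11.97). Cldn5 correlated with those lists at 0.59 and 0.67, and the part of any list was not tested. Of the 12 endothelial markers, 1 was called in 1 of 11 comparisons: Cd34 was 2.16-fold higher after PMSG than after E2 in Pik3cd+/- ovaries (limma adjusted p = 0.0473). That is 8.33% of the list, beside 11.2% of all genes tested. The differences of Cldn5 between genotypes were 0.19, 0.09 and 0.33 after PMSG, after E2 and untreated, with 95% intervals that together reached from -0.37 to 0.79. Rnf130 (r = 0.933), Itm2c (r = 0.896) and Rbms2 (r = 0.892) were most like it over the arrays.

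Cldn12, a claudin linked to calcium transport between epithelial cells, varied least among the claudins, with group means from 437 to 520 units. It read 494, 446 and 446 units in Pik3cd-/- and 526, 541 and 492 in Pik3cd+/- ovaries after PMSG, and untreated ovaries read 531, 366 and 513 in Pik3cd-/- and 429, 395 and 487 in Pik3cd+/- mice. The difference after PMSG was -0.01 in Pik3cd-/- ovaries (limma adjusted p = 0.984) and 0.25 in Pik3cd+/- ovaries (adjusted p = 0.163). A second probe set did pass in Pik3cd+/- ovaries, by 0.33 after PMSG (adjusted p = 0.0296) and 0.41 after E2 (adjusted p = 0.0449), in a fit over 21545 probe sets. The 2 probe sets correlated at 0.82 over 18 arrays, so the call for Cldn12 depends on which of them is read. Its closest patterns were those of Birc6 (r = 0.848), Sos2 (r = 0.845) and Mospd2 (r = 0.845).

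Ocln, a 4-pass membrane protein that was the first integral protein found in tight junctions, was called between genotypes after E2 and in no treatment comparison. After E2 it read 80.9, 72.3 and 71.2 units in Pik3cd-/- ovaries and 35.3, 41.2 and 44.1 units in Pik3cd+/- ovaries, with no overlap. The difference was 0.78 ± 0.20 on the log2 scale, or 1.71-fold higher in Pik3cd-/- ovaries (SE, limma adjusted p = 0.0186), and its second probe set gave 0.71 (adjusted p = 0.0438). Both Ocln probe sets passed the filter on dim signals through the 3 Pik3cd-/- groups only, where they read higher, so the filter favoured this direction. The call on the first probe set was kept without the filter. In untreated ovaries the values were 55.9, 92.4 and 77.5 units in Pik3cd-/- and 47.2, 64 and 33.1 units in Pik3cd+/- mice. These overlapped, and the difference of 0.58 did not pass (adjusted p = 0.119). After PMSG the values were 72.4, 49.7 and 53.4 units in Pik3cd-/- and 54.9, 40.1 and 37.9 units in Pik3cd+/- ovaries, a difference of 0.34 (adjusted p = 0.404). Treated minus untreated lay between -0.31 and 0.01 in the 4 comparisons, and none passed. The E2 genotype call was lost without Pik3cd-/- E2 replicate 1 or Pik3cd+/- E2 replicate 1 or 2 (adjusted p up to 0.0756). Ptprj (r = 0.900), Slc27a2 (r = 0.891) and Ppm1h (r = 0.868) had the patterns most like that of Ocln.

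F11r, which encodes an immunoglobulin-like adhesion protein of epithelium, endothelium and blood cells, rose after PMSG in Pik3cd+/- ovaries. Its signal after PMSG was 969, 873 and 913 units in Pik3cd-/- ovaries and 1280, 1220 and 1050 units in Pik3cd+/- ovaries. After E2 it was 855, 747 and 789 units in Pik3cd-/- and 1010, 1130 and 874 units in Pik3cd+/- ovaries. Untreated ovaries had 692, 985 and 778 units in Pik3cd-/- and 795, 810 and 708 units in Pik3cd+/- mice. All treated Pik3cd+/- arrays lay above the untreated ones of that genotype, while the PMSG and the E2 arrays of Pik3cd-/- ovaries each overlapped the untreated ones. The rise after PMSG was 0.61 ± 0.12 in Pik3cd+/- ovaries (SE, limma adjusted p = 0.00479, 1.53-fold), and the difference in Pik3cd-/- ovaries was 0.18 (adjusted p = 0.445). After E2 the differences were -0.02 in Pik3cd-/- (adjusted p = 0.933) and 0.37 in Pik3cd+/- ovaries (adjusted p = 0.132). The responses to PMSG differed by -0.43 ± 0.17 between genotypes, which did not pass (adjusted p = 0.457), nor did the -0.39 after E2 (adjusted p = 0.671).

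Compared by genotype, F11r was lower on every Pik3cd-/- array than on every Pik3cd+/- array after PMSG and after E2. The differences of -0.36 (limma adjusted p = 0.116) and -0.32 (adjusted p = 0.0776) did not pass. The E2 difference did pass without Pik3cd+/- E2 replicate 3 (adjusted p = 0.0381) or Pik3cd-/- untreated replicate 2 (adjusted p = 0.0388). With the replicate number as a block and PMSG arrays alone, the difference of -0.36 had an adjusted p of 0.0427. A second probe set, close to the median of all signals, showed 0.0043 after PMSG in Pik3cd+/- ovaries (adjusted p = 0.981) and correlated at -0.08 with the first. The call after PMSG therefore rests on the brighter probe set. Macrophage markers had a correlation of 0.58 with F11r over 18 arrays. After PMSG 4 of 9 rose in Pik3cd+/- ovaries, or 44.4% beside 5.81% of all genes tested. In Pik3cd-/- ovaries 0 of 9 rose, beside 1.71% of all genes tested. The macrophage list's mean log2 level was 7.95 to 8.28 in Pik3cd-/- and 7.74 to 8.61 in Pik3cd+/- ovaries after PMSG. In untreated ovaries it was 7.49 to 8.34 and 7.13 to 7.37, and the list's part in the result was not tested. F11r also correlated at -0.65 with the oocyte list, of which 9 of 12 fell after PMSG in Pik3cd+/- ovaries, beside 11.9% of all genes tested. With 7 smooth muscle genes its correlation was 0.55, and 2 of those rose there, beside 5.81% of all genes tested. Neither list was tested as a part of the result. Card19 (r = 0.934), Atp11b (r = 0.897) and Junb (r = 0.881) were the genes most like it.

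Tjp1, the scaffold that binds claudins, occludin and actin, was called in no comparison. After PMSG it read 1180, 1340 and 1340 units in Pik3cd-/- and 1190, 1240 and 1150 units in Pik3cd+/- ovaries, and untreated ovaries had 1790, 1450 and 1460 units in Pik3cd-/- and 1390, 1340 and 1550 units in Pik3cd+/- mice. All PMSG arrays lay below the untreated arrays of their genotype. The differences were -0.28 in Pik3cd-/- (limma adjusted p = 0.148) and -0.25 in Pik3cd+/- ovaries (adjusted p = 0.0897), and neither passed. E2 minus untreated was 0.01 in Pik3cd-/- and -0.03 in Pik3cd+/- ovaries, with 95% intervals of -0.20 to 0.22 and -0.24 to 0.18. Over 18 arrays Tjp1 ran opposite to F11r (r = -0.74) and with Cldn1 (r = 0.66). Nrp2 (r = 0.908), Ncoa6 (r = 0.876) and Otud1 (r = 0.844) came closest to it.

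Crb3, the short membrane protein that anchors the Crumbs polarity complex in mammalian epithelia, was the only member called higher in Pik3cd-/- ovaries in all 3 states. Cldn5, Cldn11, Ocln and Tjp1 also had higher values there in all 3 states. Of their differences, only those of Cldn11 and Ocln after E2 were called. For Cldn11 they were 0.41 after PMSG, 0.64 after E2 and 0.47 untreated. The Crb3 signal after PMSG was 150, 154 and 145 units in Pik3cd-/- and 118, 109 and 103 units in Pik3cd+/- ovaries. After E2 it was 177, 156 and 140 units in Pik3cd-/- and 128, 121 and 111 units in Pik3cd+/- ovaries. Untreated ovaries had 161, 215 and 199 units in Pik3cd-/- and 142, 145 and 126 units in Pik3cd+/- mice. In each state all Pik3cd-/- arrays lay above all Pik3cd+/- arrays. The differences were 0.41 ± 0.11 after PMSG (SE, limma adjusted p = 0.0421), 0.37 ± 0.11 after E2 (adjusted p = 0.0304) and 0.44 ± 0.11 in untreated ovaries (adjusted p = 0.0442), or 1.33-fold, 1.29-fold and 1.36-fold. With the replicate number as a block and PMSG arrays alone, the PMSG value had an adjusted p of 0.0347, while the block on all arrays ended the untreated call (adjusted p = 0.0529). Without the filter the PMSG and untreated calls were lost (adjusted p = 0.0646 and 0.061), and a pseudocount of 64 ended the PMSG call (adjusted p = 0.0543).

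On the brightest Crb3 probe set no treatment effect passed: PMSG minus untreated was -0.33 in Pik3cd-/- (limma adjusted p = 0.114) and -0.30 in Pik3cd+/- ovaries (adjusted p = 0.0632). The first passed without Pik3cd-/- untreated replicate 1 (adjusted p = 0.0356), and the second without Pik3cd-/- untreated replicate 1 (adjusted p = 0.0378), Pik3cd-/- untreated replicate 2 or Pik3cd-/- E2 replicate 3 (adjusted p = 0.0478 in both). On the probe set 1424809_at, PMSG minus untreated in Pik3cd+/- ovaries did pass (-0.41, adjusted p = 0.0291). The genotype calls sit close to the threshold. The call after PMSG was lost without any 1 of 11 arrays, all 6 PMSG arrays among them (adjusted p up to 0.177), and the untreated call without any 1 of 12 arrays, among them all untreated arrays but Pik3cd-/- replicate 1 (adjusted p up to 0.199). Without any 1 of the E2 arrays but Pik3cd-/- replicate 3, the call after E2 was lost (adjusted p up to 0.128). The difference itself stayed between 0.29 and 0.56 whichever array was left out. Of the other 2 Crb3 probe sets, 1424809_at passed after PMSG (0.52, adjusted p = 0.028) and after E2 (0.42, adjusted p = 0.0265) but not in untreated ovaries (0.22, adjusted p = 0.321). The probe set 1434851_s_at passed after E2 (0.50, adjusted p = 0.0106) and in untreated ovaries (0.52, adjusted p = 0.0354) but not after PMSG (0.37, adjusted p = 0.0891).

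Oocyte markers moved the same way as Crb3. Of 12 oocyte genes tested, 11 were higher in Pik3cd-/- ovaries after PMSG, 12 after E2 and 6 in untreated ovaries, and none was lower. These are 91.7%, 100% and 50% of the list, beside 3.08%, 4.85% and 0.834% of all genes tested that were called higher. The mean log2 level of the list was 10.23 to 10.36 in Pik3cd-/- and 9.11 to 9.26 in Pik3cd+/- ovaries after PMSG, 9.93 to 10.77 and 9.32 to 9.49 after E2, and 10.56 to 10.82 and 9.88 to 10.06 in untreated ovaries. The list's summed signal was 21800 to 24540 units in Pik3cd-/- and 9903 to 11220 units in Pik3cd+/- ovaries after PMSG. Zp3, a protein of the egg coat, read 3750 ± 213 units in Pik3cd-/- and 1580 ± 88.1 units in Pik3cd+/- ovaries after PMSG (SD, n = 3 each). Within the 9 arrays of a genotype, the correlation of Crb3 with the oocyte list was 0.79 in Pik3cd-/- and 0.86 in Pik3cd+/- ovaries. Over 18 arrays it was 0.93, and that of Ocln 0.75, and the list's part in these results was not tested. Myo5b (r = 0.962), Dop1b (r = 0.957) and Gfra4 (r = 0.956) had the patterns most like that of Crb3.

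**Figure D3:**
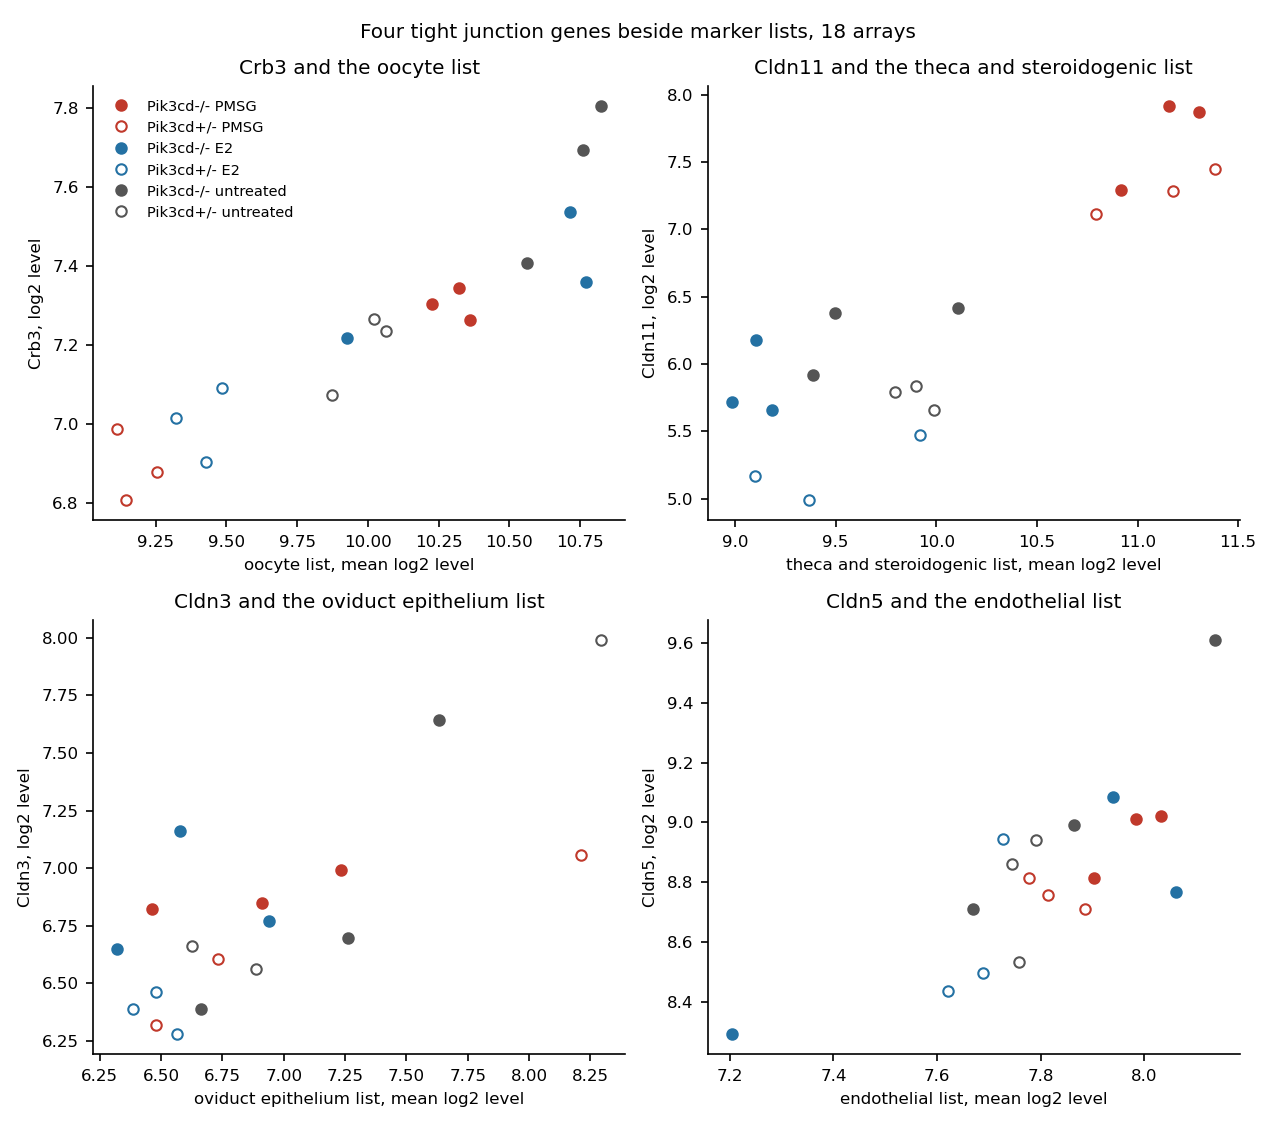
Log2 levels of Crb3, Cldn11, Cldn3 and Cldn5 (y axes) against the mean log2 level of a marker list (x axes) on 18 arrays; filled points are Pik3cd-/- and open points Pik3cd+/-, coloured by treatment. The correlations are 0.93 for Crb3 with the oocyte list, 0.60 within the 6 PMSG arrays and 0.25 within the other 12 for Cldn11 with the theca and steroidogenic list, and 0.77 for Cldn3 with the oviduct and Cldn5 with the endothelial list.

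The 9 genes did not share 1 pattern across the arrays. As a description over 18 arrays of 6 groups, Ocln and Crb3 ran together (r = 0.82), Cldn1 and F11r ran opposite (r = -0.78), and Cldn11 had correlations between -0.47 and 0.35 with the other 8. Cldn12 ran opposite to Cldn3 (r = -0.63).

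The other genes of the junction came from a list of 57, of which 51 had a probe set of their own and 38 passed the filter. The 13 dim in every group include Cldn6, Cldn9, Cldn14, Cldn16, Cldn18, Cldn19 and Tjp3, and the 6 unmatched were not analysed here. After PMSG, 1 of the 38 rose and 1 fell in Pik3cd-/- ovaries, and 3 rose and 4 fell in Pik3cd+/- ovaries. These are 5.26% and 18.4% of the list, beside 2.39% and 17.7% of all genes tested. The scaffold Magi3 fell by 0.42 in Pik3cd-/- ovaries (limma adjusted p = 0.0154) and by 0.49 in Pik3cd+/- ovaries (adjusted p = 0.00207). Amotl2, an angiomotin-like protein that binds junctions and actin, rose by 0.36 in Pik3cd-/- (adjusted p = 0.0327) and by 0.46 in Pik3cd+/- ovaries (adjusted p = 0.00312). Tjap1 and the epithelial claudin Cldn4 fell in Pik3cd+/- ovaries, by 0.34 (adjusted p = 0.0188) and 0.69 (adjusted p = 0.0251). After E2, 0 of 38 were called in Pik3cd-/- ovaries, and 1, Amotl2, rose in Pik3cd+/- ovaries (0.37, adjusted p = 0.0376). These are 0% and 2.63% of the list, beside 0.0551% and 1.62% of all genes tested.

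By genotype, 2 of the 38 were higher in Pik3cd-/- ovaries after PMSG, 4 were higher and 1 lower after E2, and 1 was lower in untreated ovaries. These are 5.26%, 13.2% and 2.63% of the list, beside 4.13%, 16.8% and 2.17% of all genes tested. Cldn4 was higher after both treatments: it read 95.9, 95.7 and 102 units in Pik3cd-/- and 47.6, 60.4 and 61.2 units in Pik3cd+/- ovaries after PMSG (limma adjusted p = 0.0494), and 132, 132 and 70.4 against 56.7, 53.7 and 58.3 units after E2 (adjusted p = 0.0123). Cgn, or cingulin, a plaque protein that links the junction to actomyosin, was likewise higher, by 0.54 after PMSG (adjusted p = 0.0366) and 0.45 after E2 (adjusted p = 0.036). Marveld2, or tricellulin, which seals the corners where 3 cells meet, was 2.14-fold higher after E2, at 183, 163 and 73.3 units in Pik3cd-/- and 65.4, 51.4 and 52.9 units in Pik3cd+/- ovaries (adjusted p = 0.00648). Without a call, all Pik3cd-/- arrays of Marveld2 also lay above all Pik3cd+/- arrays in the other 2 states. They read 78.7 to 99.4 against 44 to 50.3 units after PMSG, and 137 to 145 against 70.9 to 86.7 units untreated. Cldn4 (114 to 187 against 86.8 to 103 units) and Cgn (206 to 291 against 194 to 204 units) likewise did not overlap in untreated ovaries. Pik3cd-/- E2 replicate 3 was the low array of its group for Cldn1, Cldn4, Cgn, Marveld2 and Crb3, and it was also low for the oocyte list. Amotl2 was lower after E2, by -0.44 (adjusted p = 0.00557). Jam2, an adhesion molecule of endothelium and other cells, was lower in untreated Pik3cd-/- ovaries, at 517 units on average against 1130 in Pik3cd+/- ovaries (adjusted p = 0.0348).

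Against E2, PMSG-treated ovaries had 2 of the 38 genes higher and 1 lower in Pik3cd-/- mice, and 1 higher and 5 lower in Pik3cd+/- mice, or 7.89% and 15.8% of the list beside 4.11% and 11.2% of all genes tested. Magi3 was lower in both genotypes, by -0.32 in Pik3cd-/- (limma adjusted p = 0.0399) and -0.61 in Pik3cd+/- ovaries (adjusted p = 0.000439). Jam3, an adhesion molecule related to F11r, was higher in both, by 0.60 (adjusted p = 0.0301) and 0.53 (adjusted p = 0.0295). The counts for this list moved by more than 1.5 times when single arrays were left out. Between 2 and 8 genes were called by genotype after E2, where every E2 array but Pik3cd-/- replicate 2 moved the count that far. Between 2 and 11 were called after PMSG in Pik3cd+/- ovaries, where Pik3cd+/- untreated replicates 1 and 2, Pik3cd+/- PMSG replicate 2 and Pik3cd-/- E2 replicates 1 and 3 did.

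**Figure D4:**
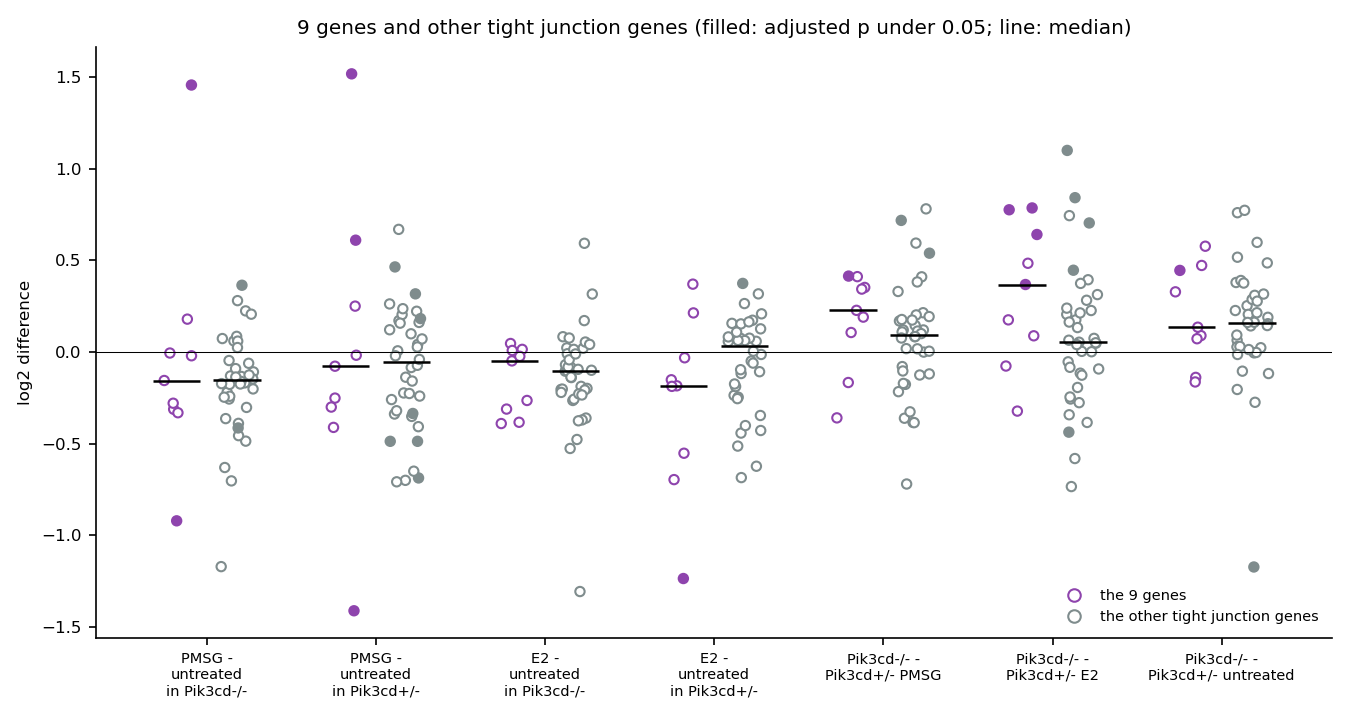
Log2 differences (y axis) of the 9 genes and of 38 other tight junction genes in 7 comparisons (x axis); filled points have a limma adjusted p under 0.05 and the short line is the median of each list. Cldn11 and Cldn1 lie outside the range of the other tight junction genes after PMSG in Pik3cd+/- ovaries. Between genotypes after E2 the medians are 0.37 for the 9 genes and 0.05 for the 38, and the 9 were chosen on earlier results of these arrays.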

How the data were processed

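The deposited intensity values come from the authors' series-wide table, and per the submitters' processing notes they were made with MAS5; which scaling or normalization was applied is not given in the sources used here. Of 45101 probe sets, 34945 had 1 gene symbol in the platform annotation, 932 had several and 9160 are unnamed here, beside 64 control probe sets. For each of 18193 genes the probe set with the highest mean over 18 arrays was kept. Values were taken as log2(signal + 8.58), where 8.58 is the 10th percentile of all values, and 12713 genes with a mean above 5.87 (the median) in at least 1 group were tested.

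One limma model (version 3.58.1, R 4.3.3) was fitted over the 6 groups (12 residual degrees of freedom, moderated test, Benjamini-Hochberg adjustment over all genes) and tested on simulated data. Other probe sets went through the same model over 21545 probe sets. Figures used matplotlib 3.10.9 in Python 3.11.15. The number of arrays limits the precision.

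The 9 genes, the tight junction list and the marker lists were chosen with earlier results of these data known. Genes named beside the 9 are the 3 with the highest Pearson correlation to each, the called genes of the tight junction list with the smallest adjusted p (up to 4 a comparison), and marker genes that a result refers to. The dim tight junction genes were named after their values were seen. Replicate numbers are shared by all groups, and their deviations correlated at -0.34 to 0.34; only the 2 PMSG groups had all 3 pairs over 0.1, so a fit with the number as a block is given beside the PMSG genotype result. Alternatives were pseudocounts of 1 and 64, no filter, quantile normalization, the probe set with the highest variance, the block, and each array left out.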

Additional observations from a re-analysis of the deposited data

How the results depend on the processing

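For 99 comparisons of the 9 genes there were 2464 values under other settings or from other probe sets. Of these, 2397 kept their side of the threshold, 54 lost a call, 13 gained one and none with a call reversed. Among values without a call in either fit, 68 changed sign, a count that leaves out the other probe sets. Cldn11 and Cldn1 after PMSG in Pik3cd+/- ovaries, and Cldn11 after PMSG in Pik3cd-/- ovaries and against E2, kept their calls under every setting. With the probe set of highest variance, 2 of the 9 genes were called after E2 in Pik3cd+/- ovaries, 16 genes of all were called after E2 in Pik3cd-/- ovaries and 0 of the 9 by genotype after PMSG. Quantile normalization gave 485 genes of all after PMSG and 3 after E2 in Pik3cd-/- ovaries, 425 by genotype in untreated ovaries and 3 for the PMSG response difference. Without the filter, 2 genes of all were called after E2 in Pik3cd-/- ovaries, and 0 of the 9 by genotype after PMSG and in untreated ovaries. A pseudocount of 64 gave 0 of the 9 by genotype after PMSG and 2 genes of all for the PMSG response difference. With the replicate block on all arrays, 2 genes of all were called after E2 in Pik3cd-/- ovaries, 0 of the 9 by genotype in untreated ovaries and 1 gene for the E2 response difference. On PMSG arrays alone, an alternative added after seeing the data, the block called 1062 genes of all and 2 of the 9 by genotype, against 525 and 1 in the fit on all arrays without a block, so arrays and block both differ. The cause of these shifts was not tested.

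Leaving out 1 array at a time, the genes called of all ranged from 86 to 741 after PMSG and 1 to 24 after E2 in Pik3cd-/- ovaries, and from 872 to 2742 and 33 to 670 in Pik3cd+/- ovaries. By genotype they ranged from 82 to 982 after PMSG, 646 to 2971 after E2 and 1 to 681 untreated. For the response differences they ranged from 0 to 4 (PMSG) and 0 to 71 (E2), and for PMSG against E2 from 235 to 1363 in Pik3cd-/- and 613 to 1828 in Pik3cd+/- ovaries. Of the 9 genes, 1 to 2 and 0 were called after PMSG and E2 in Pik3cd-/- ovaries, 3 to 4 and 0 to 1 in Pik3cd+/- ovaries, and 0 to 1, 0 to 5 and 0 to 1 by genotype after PMSG, after E2 and untreated. The response differences had 0 (PMSG) and 0 to 1 (E2), and PMSG against E2 had 1 to 2 in Pik3cd-/- and 1 in Pik3cd+/- ovaries. Of the other tight junction genes, 0 to 3 and 0 were called after PMSG and E2 in Pik3cd-/- ovaries, 2 to 11 and 0 to 4 in Pik3cd+/- ovaries, 0 to 4, 2 to 8 and 0 to 3 by genotype, 0 for either response difference, and 0 to 6 in Pik3cd-/- and 2 to 7 in Pik3cd+/- ovaries for PMSG against E2.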

Other observations

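The adherens junction, which lies just below the tight junction and holds cells together through cadherins and nectins, was read from 13 genes. After PMSG, 0 of 13 were called in Pik3cd-/- ovaries, beside 2.39% of all genes tested. In Pik3cd+/- ovaries 2 rose and 1 fell, or 23.1% of the list beside 17.7% of all genes tested. Vcl (vinculin) and Nectin2 rose by 0.43 (limma adjusted p = 0.0178) and 0.40 (adjusted p = 0.0433), and Afdn (afadin), the actin linker of nectins, fell by 0.46 (adjusted p = 0.00532). Afdn was also lower after PMSG than after E2 in Pik3cd+/- ovaries, at 628 and 945 units on average (adjusted p = 0.00137). Against E2, Nectin2 was 1.49-fold higher after PMSG in Pik3cd-/- ovaries (adjusted p = 0.0194).

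By genotype, 2 of the 13 were higher in Pik3cd-/- ovaries after E2. After PMSG and in untreated ovaries 0 were called (limma), beside 4.13% and 2.17% of all genes tested. The 2 are 15.4% of the list, beside 16.8% of all genes tested. Cdh1, the epithelial cadherin, read 525, 448 and 318 units in Pik3cd-/- and 201, 195 and 270 units in Pik3cd+/- ovaries after E2 (limma adjusted p = 0.0153, 1.89-fold). As for Cldn1, Cldn4, Cgn and Marveld2, the lowest of the 3 Pik3cd-/- arrays was replicate 3. Nectin3 was 1.21-fold higher (adjusted p = 0.0424).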
